A study of Mus musculus with 12 samples.

Results

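The 10 genes described here, Siglech, Ccr9, Ly6d, Klk1, Pacsin1, Cox6a2, Lag3, Ptprs, Runx2 and Il3ra, are markers of plasmacytoid dendritic cells that are not induced by interferon. They were taken by symbol from the count table, and all 10 were found among its 28188 gene symbols. Poly(A)-selected RNA from splenic B cells and splenic dendritic cells of 12-week-old mice was sequenced as 3 libraries for each of 4 groups, namely both cell types from the NOD strain and both from the NOD.Idd2 strain. NOD is the strain that develops autoimmune diabetes spontaneously and is the control, and NOD.Idd2 carries the Idd2 diabetes locus of B10 origin on that background, so the NOD background is common to all 12 libraries. No treatment is named. The labels call the cells isolated without giving the method, and do not tell whether each library is a different mouse. The p-values therefore reflect the spread of these libraries, which may be technical.

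Plasmacytoid dendritic cells are a small population of spleen and other lymphoid organs that senses viral nucleic acids in endosomes through TLR7 and TLR9 and then secretes large amounts of type I interferon. Their identity is set by the E-box binding protein TCF4, also called E2-2, together with factors such as SpiB and Runx2. They share many genes with B cells, among them Tcf4 and Spib themselves, and carry less CD11c (Itgax) than conventional dendritic cells.

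Total counts ran from 40344883 to 44632276 in B cell libraries and from 8663421 to 30337812 in dendritic cell libraries, the shallowest being NOD.Idd2 replicate 3. Levels are given as CPM (counts per 1e6 counts of a library) after one TMM scaling over all 12 libraries. Cd79a, part of the B cell receptor, stood at 1553 ± 106 CPM (SD, n = 3) in NOD B cells and 4.13 ± 2.83 in NOD dendritic cells, and Itgax at 2.90 ± 0.184 and 2126 ± 148, so both labels matched their defining markers in NOD. The summed level of 11 B cell identity genes was 17490 to 18266 CPM in B cell libraries and 587 to 675 in dendritic cell libraries, with none of the 11 at 0 counts in any group. The libraries also differed by sex. Xist, which marks the inactive X chromosome, reached 1563 to 2088 CPM in B cells but never more than 4 counts in a dendritic cell library, and the Y-linked Ddx3y was at 239 to 306 CPM in dendritic cells and at 0 counts in all B cell libraries, so cell type and sex cannot be told apart. Replicate 3 of both B cell groups stood apart, with a chi-square per gene of 37.3 to 42.8 against the other libraries of its group, where replicates 1 and 2 differed by 7.28 in NOD and 7.78 in NOD.Idd2. The smallest such value of any pair was 3.12, so all pairs differed by more than sampling noise.

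The 10 markers did not follow the cell type label as one group. In both strains 6 were higher in dendritic cells than in B cells (Lag3, Runx2, Ptprs, Siglech, Ccr9 and Il3ra), Ly6d and Pacsin1 were lower, Klk1 was low everywhere, and Cox6a2 was too low to test. In NOD 8 of the 9 tested passed edgeR's quasi-likelihood test at an adjusted p of 0.05, 6 higher and 2 lower, and in NOD.Idd2 9 of 9 did, 6 higher and 3 lower. These counts stand beside a background of 76.4% of all 16588 genes tested in NOD, 37.7% higher and 38.7% lower, and 75.7% in NOD.Idd2, 36.7% higher and 38.9% lower, so the share of members called says little by itself. The median log2 fold change, dendritic over B cells, was 1.78 over the 9 members tested and -0.04 over all genes in NOD, and 1.69 and -0.06 in NOD.Idd2. Leaving out both replicate 3 B cell libraries left 8 markers called in each strain, the same ones and in the same direction but for Klk1, which then missed the filter on low counts. No marker passed the test between the strains in either cell type. In RNA from whole libraries, fewer cells of a type and less RNA per cell cannot be told apart.

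**Figure D1:**
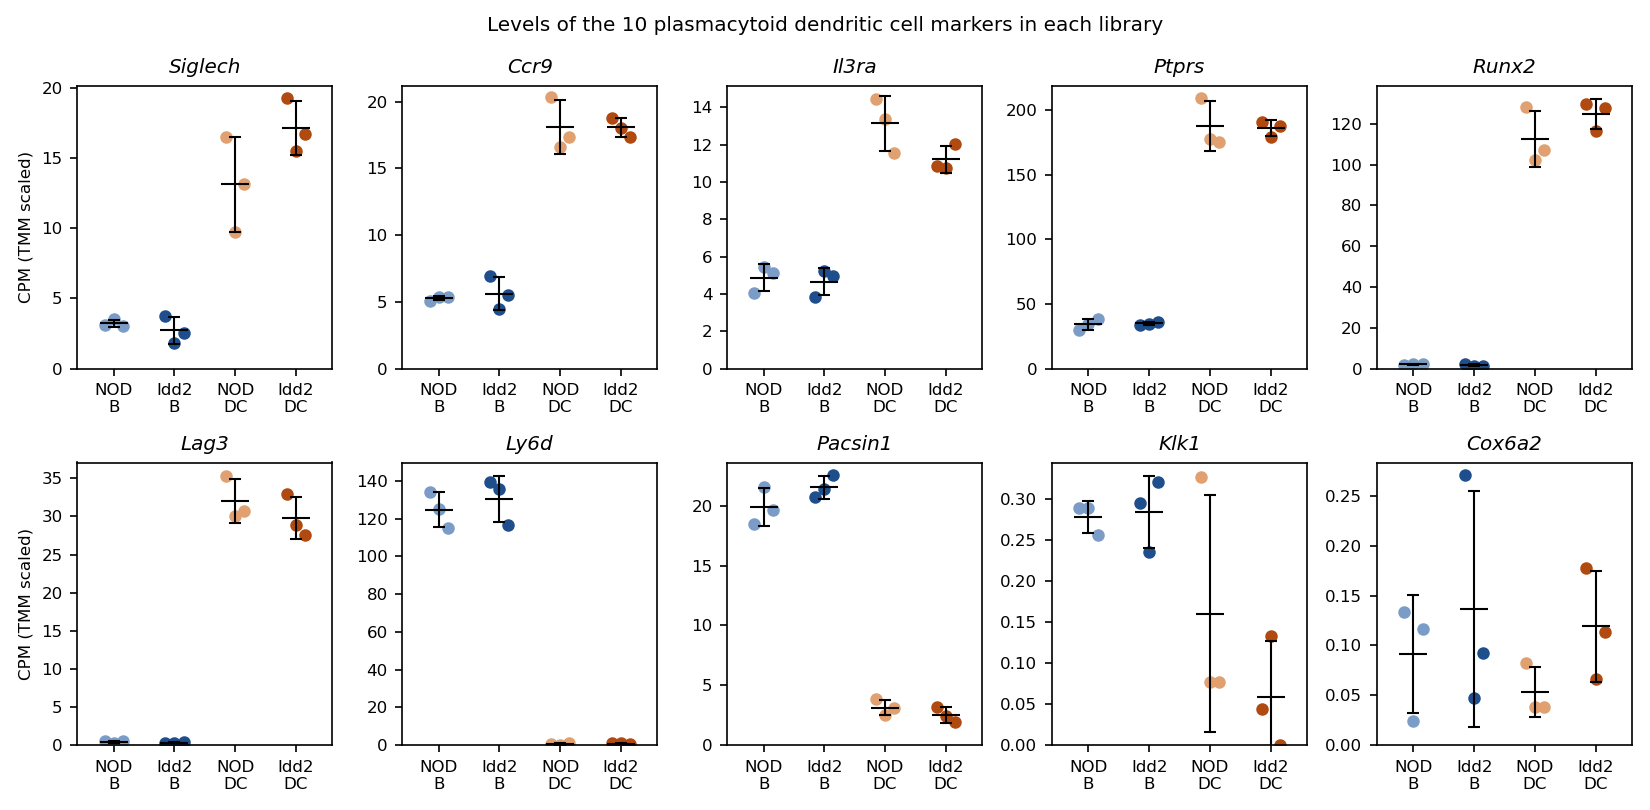
Level of each marker in every library, in CPM on a linear axis from 0, for NOD and NOD.Idd2 (axis label Idd2) B cells (B) and dendritic cells (DC); points are libraries, the long bar the mean and the whiskers 1 SD (n = 3), with the whisker of Klk1 in NOD.Idd2 dendritic cells ending at the axis. Ly6d and Pacsin1 are high in the 6 B cell libraries, the 6 genes from Siglech to Lag3 are high in the 6 dendritic cell libraries, and Klk1 and Cox6a2 stay below 1 CPM throughout.

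Promoter sequence is shown for 3 markers, to set side by side 2 genes that were higher in dendritic cells, Siglech and Ptprs, and 1 that was not, Klk1. Of the 10 markers 7 have a promoter in the RefSeq table used, and those of the other 4 matched genes, whose windows reach 42 to 220 bases into annotated exons, are not printed. Each line gives the 250 bases before the RefSeq transcription start on GRCm38.p6, 5′ to 3′ on the gene's strand. The windows lie at chr7:55767934-55768183 (plus strand) for Siglech, chr17:56476481-56476730 (minus strand) for the first Ptprs start and chr7:44225110-44225359 (plus strand) for Klk1. Capitals mark matches to the E-box CANNTG, a general form not particular to TCF4, or to the Runx motif TGTGGT. The Runx motif was sought on both strands and reads ACCACA on the other.
Siglech promoter: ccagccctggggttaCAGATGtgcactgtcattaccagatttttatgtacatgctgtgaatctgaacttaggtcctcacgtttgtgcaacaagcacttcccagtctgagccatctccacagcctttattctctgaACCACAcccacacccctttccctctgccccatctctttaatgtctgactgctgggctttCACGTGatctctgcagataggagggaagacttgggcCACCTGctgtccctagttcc
Ptprs promoter: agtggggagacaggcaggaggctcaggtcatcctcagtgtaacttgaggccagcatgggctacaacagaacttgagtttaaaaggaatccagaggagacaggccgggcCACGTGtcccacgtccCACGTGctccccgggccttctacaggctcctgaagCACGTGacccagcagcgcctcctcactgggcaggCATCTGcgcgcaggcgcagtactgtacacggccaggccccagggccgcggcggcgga
Klk1 promoter: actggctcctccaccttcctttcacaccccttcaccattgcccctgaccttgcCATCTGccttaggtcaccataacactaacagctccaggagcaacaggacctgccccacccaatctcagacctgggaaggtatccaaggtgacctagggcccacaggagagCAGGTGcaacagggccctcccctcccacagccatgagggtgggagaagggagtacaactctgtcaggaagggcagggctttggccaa

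Positions count back from the start, with the base just before it at -1, and name the first base of the match. The Siglech window holds CAGATG at -235, CACGTG at -56 and CACCTG at -20, and the reverse Runx motif at -115. The Ptprs window holds CACGTG at -142, -126 and -91 and CATCTG at -57. The Klk1 window holds CATCTG at -197 and CAGGTG at -87, the latter being CACCTG on the other strand. Among 32851 promoter windows of the same length 66.2% hold a CANNTG, 17.2% the form CACCTG, which is a subset of CANNTG, 14.0% the Runx motif and 10.6% the Ets motif GAGGAAG, which is not in the 3 windows shown. Over all 8 windows of the 7 matched genes, 5 held an E-box, and the second Ptprs start and the Il3ra and Pacsin1 windows held none. The matches describe letters, not binding.

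Siglech encodes Siglec-H, a Siglec family receptor of mouse plasmacytoid dendritic cells that takes up antigen and signals through the adaptor DAP12. It lies on chromosome 7 at 55768178 to 55778925 on the plus strand of GRCm38, in the GENCODE M21 annotation used for all positions here. Its level was 3.07, 3.50 and 3.05 CPM in NOD B cells, 3.74, 1.84 and 2.55 in NOD.Idd2 B cells, 16.5, 9.71 and 13.2 in NOD dendritic cells and 19.3, 15.5 and 16.7 in NOD.Idd2 dendritic cells. Every dendritic cell library was above every B cell library, and the SD in CPM, which is not relative to the mean, was largest in NOD dendritic cells. The log2 fold change of dendritic over B cells was 2.03 (SE 0.23, edgeR adjusted p = 4.55e-06) in NOD and 2.66 (SE 0.24, adjusted p = 4.54e-07) in NOD.Idd2. The B cell level was 24.4% of the dendritic cell level in NOD and 15.8% in NOD.Idd2.

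Ccr9, on chromosome 9 at 123678439 to 123784330 on the plus strand, encodes the receptor for the chemokine CCL25, which draws cells to the thymus and small intestine. Ccr9 stood at 5.07, 5.39 and 5.38 CPM in NOD B cells and 6.92, 4.44 and 5.49 in NOD.Idd2 B cells, against 20.4, 16.6 and 17.3 in NOD and 18.8, 18.0 and 17.4 in NOD.Idd2 dendritic cells. The cell types did not overlap, while the strains did within each. Dendritic cells were higher by 1.78 on the log2 scale in NOD (SE 0.14, edgeR adjusted p = 9.53e-08) and by 1.69 in NOD.Idd2 (SE 0.14, adjusted p = 1.82e-07). Lztfl1 lies within the span of Ccr9 on the other strand and was at 37.8 ± 0.449 CPM in NOD B cells and 61.8 ± 0.233 in NOD dendritic cells (SD, n = 3). The use of strand in counting is not given in the sources used here, so reads from Ccr9 and this neighbour cannot be told apart where they overlap.

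Il3ra, the alpha chain of the interleukin-3 receptor (CD123, the classical human marker of these cells), lies on chromosome 14 at 14346275 to 14356011 on the plus strand. Il3ra was at 4.05, 5.44 and 5.10 CPM in NOD B cells and 3.82, 5.22 and 4.94 in NOD.Idd2 B cells, and at 14.5, 13.4 and 11.6 in NOD and 10.9, 10.7 and 12.0 in NOD.Idd2 dendritic cells. Of the 6 genes higher in dendritic cells it had the smallest difference, at log2 1.43 in NOD (SE 0.15, edgeR adjusted p = 1.35e-06) and 1.26 in NOD.Idd2 (SE 0.15, adjusted p = 6.05e-06). Its B cell level, 37.0% of that in dendritic cells in NOD and 41.6% in NOD.Idd2, was also the highest such share among the 6.

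Ptprs encodes the receptor phosphatase sigma, an inhibitory receptor of plasmacytoid dendritic cells, and lies on chromosome 17 at 56412426 to 56476483 on the minus strand. It was the member with the most CPM in dendritic cells. Ptprs stood at 30.2, 34.2 and 38.6 CPM in NOD B cells, 34.0, 34.6 and 36.1 in NOD.Idd2 B cells, 209, 177 and 175 in NOD dendritic cells and 191, 179 and 188 in NOD.Idd2 dendritic cells. The difference was log2 2.45 in NOD (SE 0.09, edgeR adjusted p = 4.49e-11) and 2.41 in NOD.Idd2 (SE 0.09, adjusted p = 5.55e-11). B cells held 18.3% of the dendritic cell level in NOD and 18.8% in NOD.Idd2.

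Runx2 and Lag3 were the markers nearest to absence in B cells among the 6. Runx2, a runt family transcription factor known as the master regulator of osteoblasts and needed in mouse plasmacytoid dendritic cells for their exit from bone marrow, lies on chromosome 17 at 44495987 to 44814797 on the minus strand. Its level was 1.96, 2.22 and 2.02 CPM in NOD B cells and 2.22, 1.42 and 1.42 in NOD.Idd2 B cells, against 128, 102 and 107 in NOD and 130, 116 and 128 in NOD.Idd2 dendritic cells. Dendritic cells were thus higher by log2 5.76 in NOD (SE 0.14, edgeR adjusted p = 1.07e-12) and 6.21 in NOD.Idd2 (SE 0.15, adjusted p = 7.68e-13). Supt3 overlaps Runx2 by 37646 bases on the other strand and was at 6.47 ± 0.549 CPM in NOD B cells and 17.6 ± 1.09 in NOD dendritic cells (SD, n = 3), below the level of Runx2 in dendritic cells and above it in B cells. Reads from both genes cannot be told apart in the overlap.

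Lag3 encodes an inhibitory receptor that binds MHC class II and lies on chromosome 6 at 124904361 to 124911705 on the minus strand. Lag3 was at 0.489, 0.242 and 0.465 CPM in NOD B cells and 0.246, 0.260 and 0.437 in NOD.Idd2 B cells, and at 35.3, 30.0 and 30.7 in NOD and 32.9, 28.9 and 27.6 in NOD.Idd2 dendritic cells. It had the largest difference of the members higher in dendritic cells, log2 6.30 in NOD (SE 0.19, edgeR adjusted p = 6.83e-12) and 6.55 in NOD.Idd2 (SE 0.20, adjusted p = 7.40e-12). Activated T cells and natural killer cells also carry Lag3. The T cell receptor chain Cd3e was at 6.44 ± 0.902 CPM in NOD B cells and 5.07 ± 1.64 in NOD dendritic cells (SD, n = 3). In counts, Lag3 was 2.58% to 8.80% of Cd3e in B cell libraries and 526% to 939% in dendritic cell libraries. The 9 T cell genes listed summed to 91.1 to 149 CPM in B cells and 487 to 563 in dendritic cells, none being at 0 in any group, and include Cd4 and Cd8a, which dendritic cells of mouse spleen also carry. The 7 natural killer cell genes summed to 16.2 to 32.3 CPM in B cells and 3.62 to 10.1 in dendritic cells, again with none at 0. The part of other cells in the Lag3 level was not tested.

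Ly6d and Pacsin1 had the opposite pattern. Ly6d, a small GPI-anchored surface protein that also marks B lineage progenitors and B cells, lies on chromosome 15 at 74762056 to 74763620 on the minus strand. Its level was 134, 125 and 115 CPM in NOD B cells and 139, 136 and 117 in NOD.Idd2 B cells, against 0.574, 0.154 and 1.23 in NOD and 0.976, 0.866 and 0.341 in NOD.Idd2 dendritic cells, where these stand for 14, 4 and 32 counts and for 22, 26 and 3 counts. Dendritic cells were lower, at log2 -7.57 in NOD (SE 0.27, edgeR adjusted p = 3.70e-11) and -7.30 in NOD.Idd2 (SE 0.28, adjusted p = 6.44e-11). Without NOD dendritic cell replicate 3, which had the highest Ly6d of its group, the value in NOD was -8.40. In counts, Ly6d was 7.52% to 8.35% of Cd79a in the 6 B cell libraries. In dendritic cells this ratio was 18.2%, 8.0% and 16.8% in the 3 NOD libraries and 37.9%, 51.0% and 9.38% in the 3 NOD.Idd2 libraries, that is within the B cell range in 1 library and above it in the other 5. These ratios rest on few counts and were not tested.

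Pacsin1 encodes an endocytic adaptor of neurons which, in mouse plasmacytoid dendritic cells, is needed for the interferon response to TLR7 and TLR9. It lies on chromosome 17 at 27655509 to 27711482 on the plus strand. Pacsin1 stood at 18.5, 21.6 and 19.7 CPM in NOD B cells and 20.7, 21.4 and 22.6 in NOD.Idd2 B cells, and at 3.81, 2.50 and 3.08 in NOD and 3.19, 2.43 and 1.93 in NOD.Idd2 dendritic cells. The groups of the cell types did not overlap, and dendritic cells were lower by log2 -2.67 in NOD (SE 0.15, edgeR adjusted p = 4.08e-09) and -3.05 in NOD.Idd2 (SE 0.16, adjusted p = 2.09e-09).

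Klk1 and Cox6a2 were close to the limit of detection. Klk1, a secreted tissue kallikrein protease, lies on chromosome 7 at 44225360 to 44229618 on the plus strand. Klk1 had 13, 12 and 11 counts in NOD B cells, 12, 10 and 14 in NOD.Idd2 B cells, 8, 2 and 2 in NOD dendritic cells and 1, 4 and 0 in NOD.Idd2 dendritic cells, all below 0.33 CPM. The 0 in NOD.Idd2 dendritic cell replicate 3 allows up to 3 counts, or 0.341 CPM at that depth (counting error only), which is above the level in every B cell library. Klk1 did not pass the test in NOD, at log2 -0.80 (SE 0.54, edgeR adjusted p = 0.193), and was lower in dendritic cells in NOD.Idd2 at -1.80 (SE 0.65, adjusted p = 0.0245). Single libraries decided both: without NOD dendritic cell replicate 1 Klk1 was lower in NOD at -1.77 (adjusted p = 0.0176), and in NOD.Idd2 the adjusted p was 0.111 without dendritic cell replicate 1, 0.0588 without replicate 3, where the value was -1.53, and 0.0161 without replicate 2, where it was -3.04. DESeq2 gave an adjusted p of 0.0659 in NOD.Idd2. The close copies among kallikreins and the overlapping pseudogene Gm10109 leave the assignment of these few reads uncertain.

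Cox6a2, the subunit 6a of cytochrome c oxidase used in heart and skeletal muscle, lies on chromosome 7 at 128205435 to 128206387 on the minus strand. Cox6a2 had 6, 1 and 5 counts in NOD B cells, 11, 2 and 4 in NOD.Idd2 B cells, 2, 1 and 1 in NOD dendritic cells and 4, 2 and 1 in NOD.Idd2 dendritic cells. The groups overlapped, and the gene passed the filter on low counts in no comparison. It lies wholly inside Itgad on the other strand, which was at 1.51 ± 0.141 CPM in NOD B cells and 105 ± 7.41 in NOD dendritic cells (SD, n = 3), so that even these counts cannot be assigned with certainty. Its widely used relative Cox6a1 was at 44.2 ± 3.39 CPM in NOD B cells and 51.2 ± 1.39 in NOD dendritic cells.

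**Figure D2:**
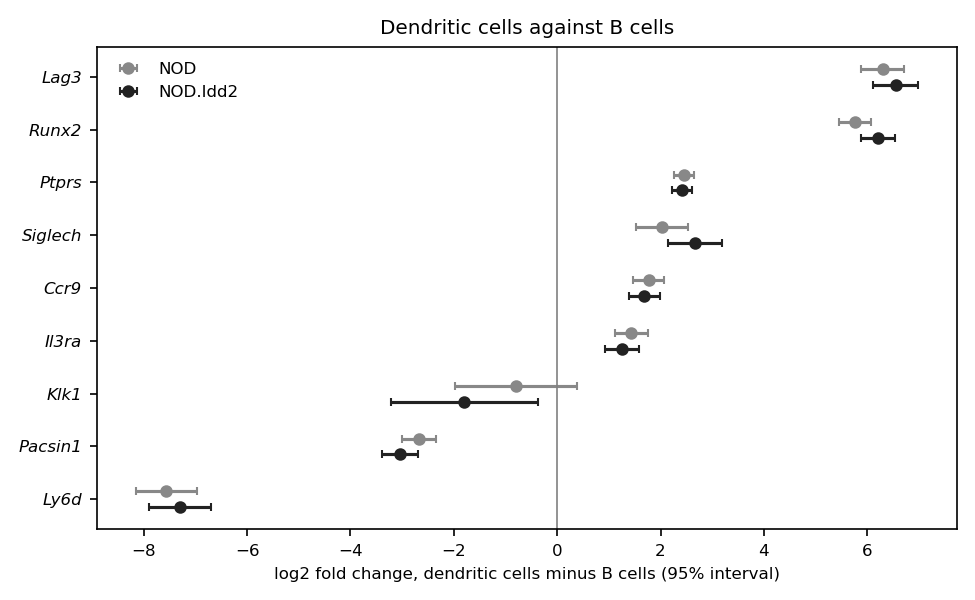
Fitted log2 fold change of dendritic cells over B cells for the 9 markers tested, in NOD (grey) and NOD.Idd2 (black), with 95% intervals from edgeR's fit of all 12 libraries. The 6 markers from Lag3 to Il3ra lie above 0 and Pacsin1 and Ly6d below it in both strains, and the NOD interval of Klk1 crosses 0.

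By the rule of a mean of at least 1 CPM in both B cell groups, 7 of the 10 markers were present in the B cell libraries: Siglech, Ccr9, Ly6d, Pacsin1, Ptprs, Runx2 and Il3ra. Lag3, Klk1 and Cox6a2 were not. In both dendritic cell groups the same level was reached by 7 markers, namely those of the first list without Ly6d and with Lag3. Of 18 listed genes of dendritic cells in general or of the conventional types, 10 had a B cell level below 1% of the dendritic cell level in both strains. The B cell level of Itgax was 0.137% of the dendritic cell level in NOD and 0.143% in NOD.Idd2, that of Clec9a 0.254% and 0.213%, that of Clec4a4 0.0573% and 0.0800%, and that of Zbtb46 0.685% and 0.570%. The B cell levels of Ptprs, Siglech, Ccr9 and Il3ra, at 15.8% to 41.6% of those in dendritic cells, lay above these 4 genes, and those of Runx2 (1.84% in NOD and 1.35% in NOD.Idd2) and Lag3 (1.25% and 1.05%) lay closer to them. Other listed genes had shares as high as the markers, among them Dpp4 (30.7% and 32.4%), Wdfy4 (36.3% and 40.8%) and Tlr3 (30.6% and 24.3%), and Itgae (7.23% and 10.9%), Gcsam (5.38% and 4.76%), Itgam (4.71% and 3.51%) and Sirpa (2.61% and 2.63%) lay above Runx2 and Lag3. The counts of Siglech were 130% to 179% of those of Runx2 in B cell libraries and 9.50% to 14.8% in dendritic cell libraries. Whether these levels come from the B cells themselves or from other cells in the preparations was not tested.

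**Figure D3:**
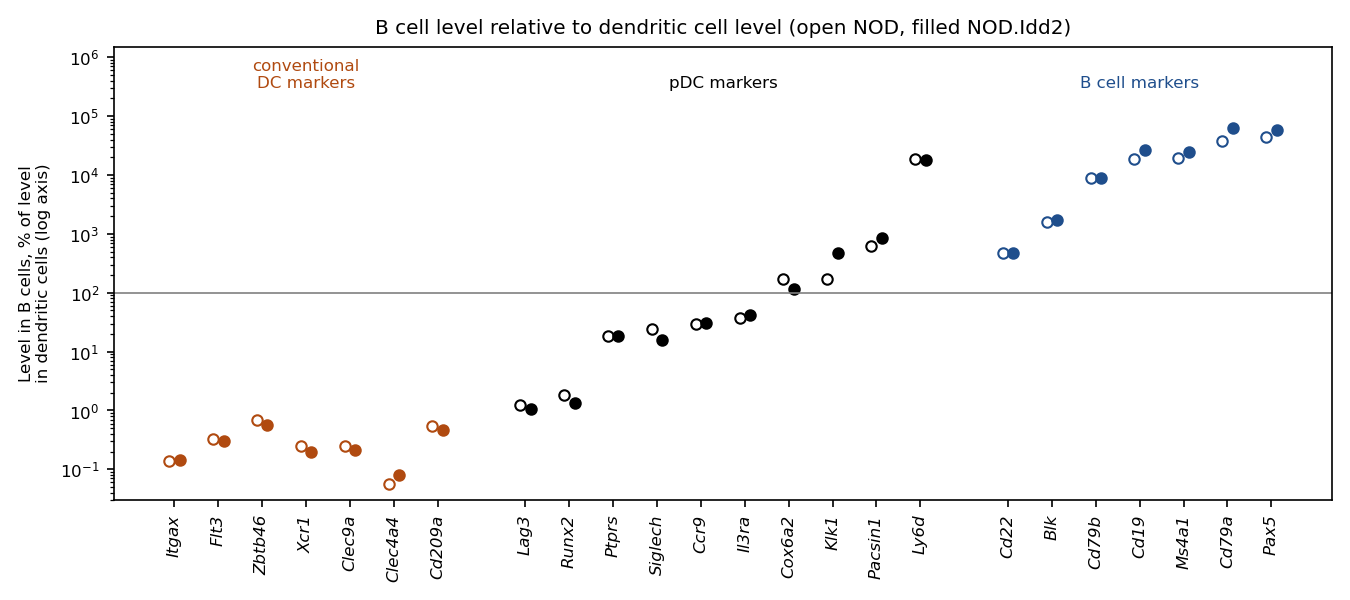
Mean B cell level of each gene as a percentage of its mean dendritic cell level, on a log axis, in NOD (open) and NOD.Idd2 (filled), with the line at equal levels. The 10 markers spread from about 1% (Lag3, Runx2) to 17947% and more (Ly6d). To their left are 7 of the 18 listed general and conventional dendritic cell genes (labelled conventional DC markers), and to their right 7 B cell genes. All 7 dendritic cell genes plotted are below 1%, while others not plotted reach 40.8%. The values of Klk1 and Cox6a2 rest on few counts.

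Levels of different genes were compared as CPM per kilobase of annotated exon. In NOD dendritic cells Lag3 was highest at 15.2 ± 1.38, followed by Runx2 at 12.7 ± 1.57, Ptprs at 12.5 ± 1.27, Il3ra at 4.43 ± 0.495, Siglech at 3.88 ± 1.0 and Ccr9 at 1.76 ± 0.196 CPM per kilobase (SD, n = 3). Runx2 and Ptprs, and Il3ra and Siglech, were neighbours closer than their spread. Ly6d (0.878 ± 0.731), Pacsin1 (0.480 ± 0.100), Klk1 (0.149 ± 0.134) and Cox6a2 (0.0780 ± 0.0369) came last. In NOD B cells Ly6d led at 168 ± 12.7 CPM per kilobase, with Pacsin1 at 3.05 ± 0.239, Ptprs at 2.29 ± 0.281, Il3ra at 1.64 ± 0.244, Siglech at 0.948 ± 0.0761 and Ccr9 at 0.515 ± 0.0175 behind it, and the other 4 between 0.134 and 0.258. The exon length of Ccr9 includes exons far upstream, which lowers its value per kilobase if they are not used.

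The effect of the Idd2 locus on the markers was asked in each cell type. In B cells 0 of the 9 markers tested passed edgeR's test, 0 had an unadjusted p below 0.05 and 0 passed with DESeq2, against 0.16% of 15011 genes called, or 24 genes, of which 11 were higher and 13 lower. With the replicate number as a block 156 genes were called and again 0 markers. The markers' adjusted p ran from 0.866 to 0.999, and 5 of the 9 had a log2 fold change, NOD.Idd2 over NOD, above 0, with a median of 0.02 against 0.01 over all genes. For every marker the NOD and NOD.Idd2 B cell libraries overlapped, but no share over all genes is given to set beside this.

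What the B cell data can bound differs with the level of the gene. For Ly6d the NOD.Idd2 level was 1.04 times that of NOD (95% interval 0.914 to 1.19), for Pacsin1 1.08 times (0.955 to 1.23) and for Ptprs 1.02 times (0.875 to 1.18). Ccr9 was at 1.06 times (0.808 to 1.40) and Il3ra at 0.958 times (0.721 to 1.27). The intervals were wider for the low genes, with Siglech at 0.843 times (0.556 to 1.28), Runx2 at 0.813 times (0.575 to 1.15), Klk1 at 1.02 times (0.643 to 1.62) and Lag3 at 0.789 times (0.417 to 1.49).

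In dendritic cells 0 of the 8 markers tested passed edgeR's test, with 1, Siglech, at an unadjusted p below 0.05 and 0 with DESeq2, against 1.29% of 14441 genes called, or 186 genes. Klk1 and Cox6a2 did not reach the filter. The median log2 fold change was 0.01 over the 8 markers and 0.00 over all genes. Siglech was 1.32 times as high in NOD.Idd2 as in NOD (95% interval 1.03 to 1.69), with levels of 13.1 ± 3.38 CPM (NOD) and 17.1 ± 1.93 CPM (NOD.Idd2; SD, n = 3) and overlapping libraries, at log2 0.40 (SE 0.16, unadjusted p = 0.0297, edgeR adjusted p = 0.357). Without the filter on low counts, Siglech alone among the markers passed, at log2 0.41 (adjusted p = 0.00647), and 700 genes were then called in all. Its log2 value fell to 0.23 without NOD replicate 2, the lowest library, and rose to 0.60 without NOD replicate 1 (edgeR adjusted p = 0.667 and 0.0599). Beside it, the 4 monocyte genes summed to 194 to 312 CPM in NOD and 361 to 371 in NOD.Idd2 dendritic cells, with none at 0. Of these, 2 had a log2 value above 0 and 2 below, none was called, and nearly all of the sum was Ccr2, a chemokine receptor that dendritic cells also carry, at 246 ± 57.6 and 360 ± 4.97 CPM (SD, n = 3; edgeR adjusted p = 0.0515). The part of monocytes in this difference was not tested.

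The other markers of dendritic cells were bounded more closely. Ptprs in NOD.Idd2 was 1.003 times the NOD level (95% interval 0.903 to 1.11), Ccr9 1.01 times (0.880 to 1.17) and Lag3 0.947 times (0.833 to 1.08). Runx2 was at 1.12 times (0.987 to 1.27; edgeR adjusted p = 0.504) and Il3ra at 0.853 times (0.720 to 1.01; adjusted p = 0.481). The low Pacsin1 and Ly6d allowed wide ranges, 0.840 times (0.597 to 1.18) and 1.23 times (0.532 to 2.86).

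**Figure D4:**
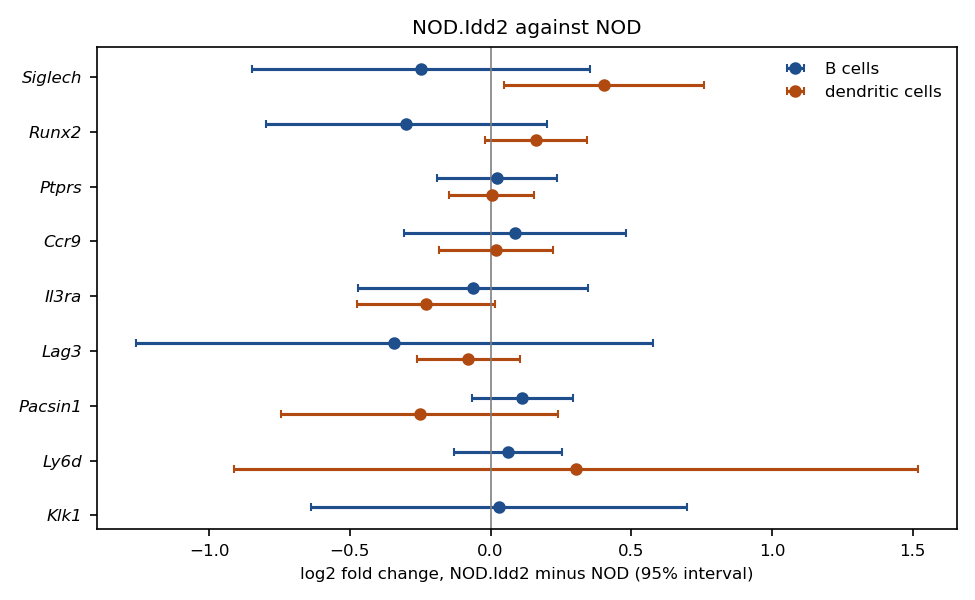
Fitted log2 fold change of NOD.Idd2 over NOD with 95% intervals for each marker tested, in B cells (blue, 9 markers) and dendritic cells (orange, 8 markers). Every interval includes 0 except that of Siglech in dendritic cells, which runs from 0.05 to 0.76 and does not pass after adjustment over all genes.

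The strain effect in dendritic cells minus that in B cells was tested as an interaction over all 12 libraries, and 0 of the 9 markers tested passed, with 1, Runx2, at an unadjusted p below 0.05 and 0 with DESeq2, against 0.109% of 16588 genes, or 18 genes, called. Runx2 had the smallest p, with a log2 difference of 0.44 (95% interval 0.00 to 0.89, unadjusted p = 0.0498, edgeR adjusted p = 0.608). Siglech followed at 0.63 (-0.08 to 1.34, unadjusted p = 0.0777, adjusted p = 0.659). Both genes leaned down in NOD.Idd2 B cells and up in NOD.Idd2 dendritic cells, in neither case past the test. The other 7 lay between -0.998 (Klk1, -2.91 to 0.91) and 0.27 (Ly6d, -0.86 to 1.39), with adjusted p from 0.705 to 0.995. With the replicate number as a block 56 genes were called and 0 markers.

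The 7 listed transcription factors of these cells had a mean of at least 1 CPM in B cells as well as in dendritic cells. Of these, 3 were higher and 4 lower in NOD dendritic cells than in NOD B cells by edgeR, beside 76.4% of all genes called. In NOD.Idd2, 3 were higher, 3 lower and 1 not called, beside 75.7% of all genes called. Tcf4, the factor that sets the identity of plasmacytoid cells, was at 376 ± 10.3 CPM in NOD B cells and 143 ± 15.2 in NOD dendritic cells (SD, n = 3), lower by log2 -1.40 (SE 0.07, edgeR adjusted p = 1.54e-09). Spib, an Ets factor of B cells and plasmacytoid cells, was at 790 ± 50.5 and 87.1 ± 7.24 CPM, at log2 -3.18 (adjusted p = 1.38e-12). Cbfa2t3, a corepressor that partners TCF4, was higher at log2 2.39 and Zeb2, a repressor needed for these cells, at 1.46. Among the Runx genes, Runx3 was higher at log2 1.19 and Cbfb, the shared partner subunit, at 0.42, while Runx1 did not pass, at -0.06 (adjusted p = 0.377).

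Of 12 other genes known from plasmacytoid dendritic cells 10 were tested in NOD, and 3 were higher, 5 lower and 2 not called. Their median was -0.56 on the log2 scale against -0.04 over all genes, 76.4% of which were called. In NOD.Idd2, 4 were higher, 5 lower and 1 not called, beside 75.7% of all genes called. Cd300c, an activating receptor, rose from 0.172 ± 0.0546 CPM in NOD B cells to 6.43 ± 1.20 in NOD dendritic cells (SD, n = 3), at log2 5.21 (edgeR adjusted p = 3.91e-09). Fcrla, an Fc receptor-like protein of B cells that plasmacytoid cells share, went the other way, from 511 ± 18.9 to 2.52 ± 1.10 CPM, at -7.66 (adjusted p = 1.13e-12). Bst2, the interferon-inducible antigen that the PDCA-1 antibody sees, was higher at 1.46, and Rnase6, a secreted ribonuclease, at 1.50. Mctp2 (-2.61), Atp1b1 (-3.00) and Havcr1 (-3.55) were lower.

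The partners of the markers moved in either direction. Of 7 genes of Siglec-H and DAP12 signalling 2 were higher and 5 lower in NOD dendritic cells, beside 76.4% of all genes called. Tyrobp, which encodes DAP12 itself, was at 13.1 ± 0.697 CPM in NOD B cells and 296 ± 13.9 in NOD dendritic cells (SD, n = 3), at log2 4.50 (edgeR adjusted p = 5.19e-14), and Card9, an adaptor downstream of Syk, was higher at 7.77. Blnk, the linker of the B cell receptor, was lower at -7.43 and Btk, its kinase, at -1.36. Of 7 genes of the interleukin-3 receptor pathway 5 were higher and 1 lower. Csf2rb2, the chain of mouse that pairs with Il3ra alone, was at 1.30 ± 0.160 CPM in NOD B cells and 71.1 ± 5.56 in NOD dendritic cells, at log2 5.77, and the common chain Csf2rb and the kinase Jak2 were higher at 2.56 and 2.48. The alpha chain of the interleukin-5 receptor, Il5ra, was lower at -7.97.

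Among 11 genes of endosomal nucleic acid sensing, 8 were higher, 2 lower and 1 not called in NOD dendritic cells against NOD B cells. The interferon factor Irf7 was higher at log2 1.67, the adaptor Myd88 at 1.59, the kinase Irak4 at 1.15 and the RNA receptor Tlr7 at 0.65, while the DNA receptor Tlr9 did not pass, at 0.10 (edgeR adjusted p = 0.247). All 5 tested ligand genes of LAG-3 were higher, with H2-Ab1, a chain of MHC class II, at 1.43. Of 7 genes of homing, with the ligand Ccl25, 3 were higher and 3 lower. The chemokine receptor Cxcr3 was higher at 2.34, and the chemokine receptors Ccr7 and Cxcr4 were lower at -1.01 and -1.56. These shares stand beside the 76.4% of all genes called in that comparison.

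Between the strains, no gene of these lists passed in B cells, where 0.16% of 15011 genes were called in all. In dendritic cells 1 of the 7 homing genes was called and is not reported here, beside 1.29% of 14441 genes. In dendritic cells, Tcf4 stood at 143 ± 15.2 CPM in the NOD and 161 ± 10.3 in the NOD.Idd2 libraries (SD, n = 3), and Spib at 87.1 ± 7.24 and 98.2 ± 8.89, neither past edgeR's test.

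The genes whose level ran most like that of Siglech over the 6 dendritic cell libraries were ranked by Pearson's r on log2 CPM among 10208 genes with a mean of at least 5 CPM. With only 6 libraries, which differ in depth and strain, this is a description. Apba1 (0.994), Il1rl2 (0.991), Igf1r (0.988), Syne2 (0.988) and Ccdc88c (0.987) came first. Of the markers, Runx2 came nearest at 0.932 (rank 60), with Ccr9 at 0.680, Ptprs at 0.573, Lag3 at 0.257 and Il3ra at -0.363. The factors Tcf4 and Spib had 0.933 (rank 56) and 0.926 (rank 68), but Bcl11a, another factor of these cells, had -0.286 (rank 6699), and the surface proteins Bst2 and Cd300c had 0.535 and 0.221. In the 6 B cell libraries Runx2 again had 0.910 with Siglech and Ccr9 0.787, but Tcf4 -0.463.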

How the data were processed

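Per the labels' protocols, poly(A)-selected libraries (KAPA HyperPrep) were made from Trizol-extracted RNA of splenic B cells and dendritic cells. GRCm38 and STAR (version written as 0.12.2) come from the submitters' processing notes. How reads were counted, on which annotation and with what use of strand is not given in the sources used here. All results rest on the whole-number raw counts per gene symbol that the authors deposited. Their normalized table was not used.

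The members and gene lists were chosen with earlier results of these data known. Libraries were grouped by their titles. CPM values used one TMM scaling of the 12 libraries. Strain effects were tested with edgeR 4.0.16 (R 4.3.3), quasi-likelihood, on the 6 libraries of each cell type, and cell type differences and the interaction on all 12 in 4 groups. filterByExpr kept genes at a minimum count of 10 and total of 15. P-values were adjusted by Benjamini-Hochberg over all genes tested, threshold 0.05. The test was checked on simulated counts. Named were all members, up to 4 called genes per list, smallest p first, defining markers and the 5 genes most like Siglech. A few list genes covered by this rule are not reported here. Other genes of a list were named after their values were seen. Alternatives were DESeq2 1.42.0, other size factors, other filters, other sets of libraries, a replicate block and leaving out each library, with both replicate 3 B cell libraries left out as an alternative chosen after seeing the data.

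Replicate numbers 1 to 3 are shared by the groups. Across genes, the deviations of B cell libraries with the same number correlated at 0.617, 0.410 and 0.815, all above 0.1. By that rule the numbers were taken to pair them, though the labels state no pairing. The main tests did not use this pairing, which entered only as the replicate block among the alternatives. Unmatched numbers correlated as strongly for replicates 1 and 2, at 0.433 and 0.470, so the data set apart replicate 3 alone. In dendritic cells the correlations were -0.0017, 0.012 and 0.054, and the libraries share only a number. Intervals and floors cover counting error or the spread of these libraries only.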

Additional observations from a re-analysis of the deposited data

How the results depend on the processing

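The 8 markers called in both strains between the cell types, all but Klk1, kept direction and call in every alternative run. Markers called numbered 8 to 9 in either strain when 1 library was left out. No marker was called between the strains, or in the interaction, under any alternative except Siglech in dendritic cells without the filter on low counts, which made 1 call against 0. The counts over all genes moved more. For the strain effect in B cells (24 genes) DESeq2 called 122, the fit of all 12 libraries 42, leaving out both replicate 3 libraries 46, and single libraries left out 13 to 18. In dendritic cells (186 genes) DESeq2 called 296, no filter 700, the fit of all 12 libraries 94 and single libraries left out 63 to 332. For the interaction (18 genes) DESeq2 called 114, no filter 33 and single libraries left out 7 to 19. The causes were not tested.

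With the replicate block, which pairs libraries by number, 156 genes were called in B cells, 214 in dendritic cells and 56 in the interaction, and 12801 and 12703 between the cell types in NOD and NOD.Idd2. The block changed no call of a marker, with 0, 0 and 0 called between strains and 8 and 9 between cell types. In dendritic cells the adjusted p of Siglech with the block was 0.0858.

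Reversals of sign touched only strain effects and interactions that passed no test, most of them near 0, with Ly6d in dendritic cells (0.30 with all libraries) and in the interaction (0.27) as the larger ones. Leaving out both replicate 3 B cell libraries turned Klk1 in B cells to -0.13 on the log2 scale, and the fit of all 12 libraries turned Ptprs in dendritic cells to -0.012. With single libraries left out, log2 values in B cells ran from -0.071 to 0.11 for Ptprs, -0.19 to 0.065 for Il3ra, -0.076 to 0.15 for Klk1 and -0.085 to 0.23 for Ccr9. In dendritic cells they ran from -0.16 to 0.00046 for Lag3, -0.041 to 0.11 for Ccr9, -0.17 to 1.17 for Ly6d and -0.045 to 0.092 for Ptprs. In the interaction they ran from -0.13 to 0.052 for Ptprs, -0.23 to 0.088 for Ccr9 and -0.20 to 1.13 for Ly6d. Depth limits Klk1, Cox6a2, Lag3 in B cells and Ly6d in dendritic cells.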
